A study of Rattus norvegicus with 8 samples.

Results

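The complement components described here are 9 genes, C1qa, C1qb, C1qc, C1r, C1s, C2, C3, C4b and Serping1, measured by RNAseq in the rat hippocampus. They were taken by gene symbol from the authors' table of one comparison, with every transcript row of a symbol kept. Of the 9 genes, 8 had a row and 1, C4b, had none, so C4b was not analysed. The 8 genes held 10 of the 16266 transcript rows, since C2 and C3 had 2 rows each and the other 6 genes had 1. The samples were whole hippocampi of 8 adrenalectomized (ADX) rats, in which both adrenal glands had been removed and circulating corticosterone was therefore absent unless supplied. At zeitgeber time (ZT) 2, early in the resting phase, 4 of the rats were infused through a jugular cannula for 30 min with vehicle, 0.45% saline, and 4 with corticosterone-2-hydroxypropyl-β-cyclodextrin at 0.75 mg/mL in the same saline (CORT), and the tissue was taken 2 h after the infusion began. The labels give Sprague-Dawley rats aged 3 to 4 months, whereas the methods of the study name younger Lister Hooded males, and the vehicle samples are titled untreated. All rats had drunk low-dose corticosterone while they recovered from surgery, which was withdrawn overnight before the infusion. The comparison addresses which hippocampal genes differ after corticosterone given in its cyclodextrin complex. The vehicle is described as saline alone, so effects of the steroid and of the cyclodextrin cannot be told apart.

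Complement is a cascade of serum-type proteins that tags surfaces for removal. In the classical pathway the recognition protein C1q, built from the products of C1qa, C1qb and C1qc, carries the proteases C1r and C1s. C1r activates C1s, which cleaves C4 and C2 to make an enzyme that activates C3. Serping1 encodes the C1 inhibitor that blocks C1r and C1s. In the brain, microglia are the main source of C1q, and C1q and C3 are known for marking synapses for removal; C1r, C1s, C3 and Serping1 are also made by fibroblasts, vascular cells and astrocytes.

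Levels are given as FPKM, fragments counted per length of transcript and scaled for library size, so that levels of different genes can be compared. The table holds 1 FPKM value per group and row, estimated by the authors from the 4 rats of the group, and no value of a single rat. The spread between rats is therefore not known for any value below, no test could be computed from these group values, and the authors' own test results in the same table were not used, so whether any difference exceeds the variation between rats was not tested here. Differences are given as the log2 of the CORT over the vehicle value, without a pseudocount. A row was counted as lower when the CORT value was at least 20% below the vehicle value, as higher when it was at least 25% above it (the same ratio turned over), and only if the mean of the group values was at least 1 FPKM. This is a mark of size and not of significance. Since the hippocampi were sequenced in bulk, fewer cells of a type and less RNA per cell cannot be told apart. The number of reads behind a value is not known. No row of the table was at 0 in either group. As a check of the labels, all 10 of a list of 10 glucocorticoid target genes, Sgk1 and Tsc22d3 among them, were at least 25% higher in the CORT group, with log2 ratios from 0.60 to 2.54. That list was chosen with earlier results of these data known, so its count is a description and not independent evidence.

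Of the 10 complement rows, 9 were lower in the CORT than in the vehicle group and 1, the larger row of C3, was higher. All 10 rows had a mean of at least 1 FPKM. The smaller C3 row reached it only through its vehicle value, 1.52 FPKM, against 0.551 FPKM with CORT. Its place in the counts below rests on that value. The rows of Serping1, C1s and the smaller row of C3, 3 of the 10, were at least 20% lower with CORT, against 9.25% of all 15434 rows with a mean of at least 1 FPKM. None of the 10 was at least 25% higher, against 8.40% of all such rows. The median log2 ratio of the 10 rows was -0.26, beside 0.02 over all rows, of which 44.4% had a ratio below 0. A difference of at least 1.5-fold was found in 2 rows, Serping1 and the smaller C3 row, against 3.66% of all rows lower by as much. At a fold of 1.1, 8 of the 10 were lower, against 21.0% of all rows. These counts depend on level, because ratios spread more widely in weakly expressed rows. Between 1 and 5 FPKM, 20% of all rows and 2 of 3 complement rows (C1s and C3, with C2 the other) were at least 20% lower. Between 5 and 20 FPKM the shares were 5.91% of all rows and 1 of 4 complement rows, Serping1. Above 20 FPKM they were 2.68% of all rows and 0 of the 3 C1q rows. Over all levels of at least 5 FPKM, 4.45% of all rows and 1 of 7 complement rows were at least 20% lower.

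**Figure D1:**
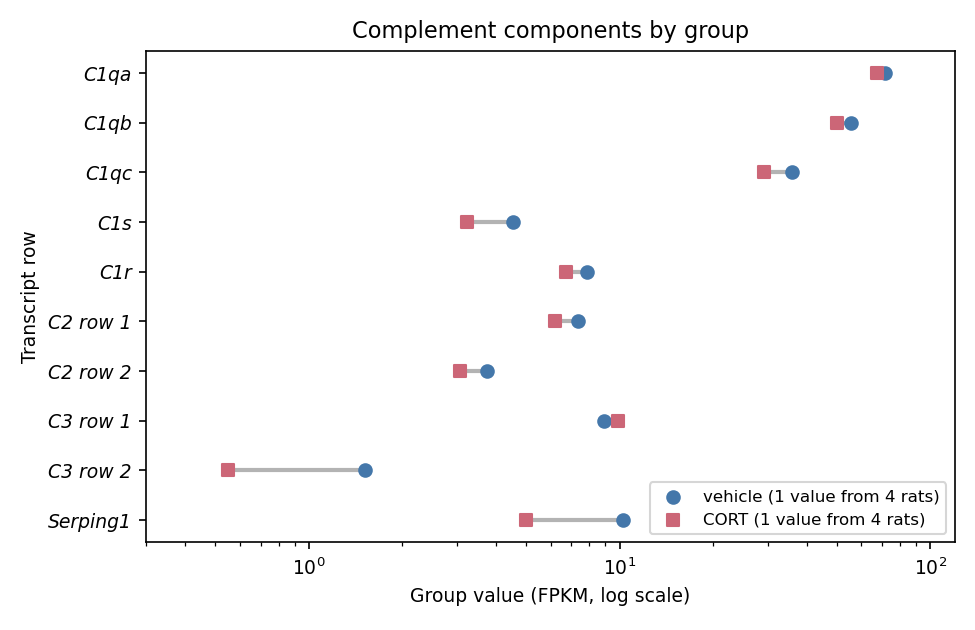
FPKM of each of the 10 complement rows (log axis) in the vehicle group (circles) and the CORT group (squares), 1 value per group and row, with grey lines joining the pair. The C1q genes lie highest, between 29.2 and 71.8 FPKM, and the widest gaps are those of the smaller C3 row and Serping1.

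**Figure D2:**
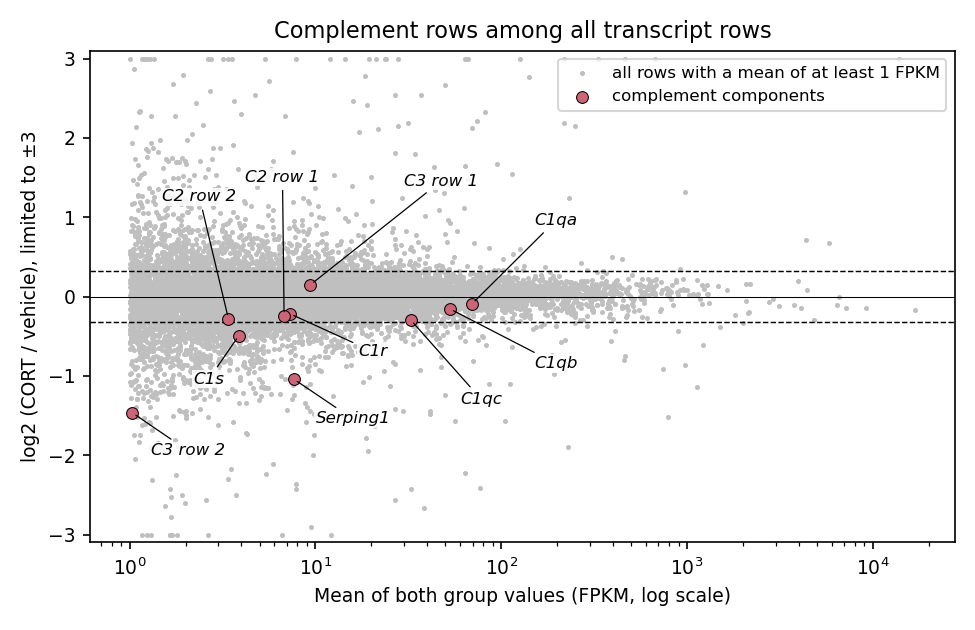
Log2 ratio of CORT over vehicle (limited to 3 in either direction) against the mean FPKM of both groups (log axis) for all 15434 rows (grey) and the 10 complement rows (red). Dashed lines mark 20% lower and 25% higher; the 3 C1q rows lie inside them, and Serping1, C1s and the smaller C3 row lie below.

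The genes of C1q were by far the most abundant of the 8. In the rn6 genome, C1qb (155246446 to 155252003), C1qc (155255004 to 155258392) and C1qa (155261249 to 155264143) lie side by side within 17.7 kb of chromosome 5. C1qa, the A chain, was at 71.8 FPKM after vehicle and 67.4 FPKM after CORT, a log2 ratio of -0.09. C1qb, the B chain, was at 55.6 FPKM (vehicle) and 50.0 FPKM (CORT), a log2 ratio of -0.15. C1qc, the C chain, was at 35.9 FPKM (vehicle) and 29.2 FPKM (CORT), a log2 ratio of -0.30. All 3 chains were thus lower in the CORT group, by 6.08% for C1qa, 10.1% for C1qb and 18.5% for C1qc, and none reached 20%. The order of the levels, A over B over C, was the same in both groups. In FPKM, C1qa exceeded C1qc 2.00-fold in the vehicle group and 2.31-fold in the CORT group, while the ratio of C1qa to C1qb was 1.29 and 1.35. In the finished protein the chains are present in equal numbers.

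For C1qa and C1qb, the most abundant of the genes, and for C3, the only gene with a row that was higher with CORT, the 250 bases before the annotated start are shown from RefSeq (build GRCr8, which is not the build of the table). RefSeq promoters were matched by symbol for 4 of the 8 genes, the fourth being C1r. Capitals mark matches, on either strand, to the letters GAGGAA, a core bound by the myeloid factor PU.1, or TTCNNNGAA, a site of STAT factors; the glucocorticoid receptor hexamer AGAACA, and its full palindrome of AGAACA and TGTTCT with 3 bases between, were searched as well. These letters and genes were chosen after the values were seen.
C1qa, chr5:154419934-154420183, minus strand: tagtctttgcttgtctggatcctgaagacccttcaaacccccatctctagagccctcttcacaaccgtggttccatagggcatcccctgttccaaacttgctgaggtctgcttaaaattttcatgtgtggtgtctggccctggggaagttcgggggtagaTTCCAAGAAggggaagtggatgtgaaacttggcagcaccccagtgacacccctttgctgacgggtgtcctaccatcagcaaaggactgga
C1qb, chr5:154407828-154408077, minus strand: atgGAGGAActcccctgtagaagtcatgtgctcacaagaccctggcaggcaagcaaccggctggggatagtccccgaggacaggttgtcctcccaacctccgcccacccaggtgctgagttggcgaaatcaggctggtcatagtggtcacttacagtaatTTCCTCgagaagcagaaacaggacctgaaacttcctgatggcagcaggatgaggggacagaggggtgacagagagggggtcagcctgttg
C3, chr9:2201340-2201589, minus strand: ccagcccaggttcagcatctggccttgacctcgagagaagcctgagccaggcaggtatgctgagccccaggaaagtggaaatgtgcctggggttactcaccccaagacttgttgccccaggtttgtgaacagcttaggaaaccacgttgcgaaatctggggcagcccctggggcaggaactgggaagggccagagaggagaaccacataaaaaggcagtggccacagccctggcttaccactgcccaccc

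C1qb had 2 matches to GAGGAA and C1r had 1, while 23.3% of the 33469 RefSeq promoter windows of the same length held at least 1. C1qa had 1 match to TTCNNNGAA, which 7.67% of all windows held. None of the 4 windows held the hexamer AGAACA, found in 17.5% of all windows, or the full palindrome, found in 0.0120%. No motif overlapped another in these windows. A match is only a match of letters, and its absence concerns these 250 bases alone.

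The proteases that C1q carries were several-fold less abundant. C1r and C1s lie next to each other on chromosome 4 of rn6, at 157125997 to 157136829 and 157143591 to 157155609. C1r, the protease that activates itself when C1q binds, was at 7.84 FPKM after vehicle and 6.74 FPKM after CORT, a log2 ratio of -0.22. C1s, which C1r activates and which cleaves C4 and C2, was at 4.53 FPKM (vehicle) and 3.22 FPKM (CORT), a log2 ratio of -0.49. C1s was thus past 20% and C1r was not. C1r exceeded C1s in FPKM by 1.73-fold in the vehicle group and 2.09-fold in the CORT group. Only C1s, among the C1 genes, lay in the band of weakly expressed rows, where such folds were common.

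Serping1 had the lowest ratio of the genes with a single row. Its product, the C1 inhibitor, is a serpin that inactivates C1r and C1s and also the proteases of the contact system. Serping1, on chromosome 3 of rn6 between 72161188 and 72171078, was at 10.3 FPKM after vehicle and 5.0 FPKM after CORT. The CORT value was 2.06-fold lower, a log2 ratio of -1.04, and 1.23% of all rows had a ratio as low or lower. The FPKM of Serping1 therefore stood above that of C1r in the vehicle group, where the ratio of C1r to Serping1 was 0.762. It stood below that of C1r in the CORT group, where the ratio was 1.35. These are RNA values, and no protein was measured. C1s stayed below Serping1 in both groups, at 0.440 and 0.644 of its FPKM.

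C2 and C3 form the next steps of the cascade. C2 encodes the protease subunit of the classical C3 convertase, and its 2 rows share a locus on chromosome 20 of rn6, from 4530341 to 4561152. The first (ENSRNOT00000060607.4) was at 7.35 FPKM (vehicle) and 6.21 FPKM (CORT), a log2 ratio of -0.24. The second (ENSRNOT00000000477.6) was at 3.73 FPKM and 3.07 FPKM, a log2 ratio of -0.28. Both C2 rows were therefore lower by similar amounts, neither by 20%, and the first held 66.3% of the summed C2 FPKM with vehicle and 66.9% with CORT. The deposited locus also holds rows of Cfb, the alternative-pathway counterpart of C2, and of Nelfe, a transcription elongation factor subunit, so the rows of C2 are uncertain where reads fall on overlapping transcripts.

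C3 encodes the central component, whose cleavage tags the target surface. Its 2 rows share a locus on chromosome 9 of rn6, from 9721104 to 9747167. The larger (ENSRNOT00000075494.1) was at 8.91 FPKM (vehicle) and 9.88 FPKM (CORT), a log2 ratio of 0.15. The smaller (ENSRNOT00000073042.3) was at 1.52 FPKM (vehicle) and 0.551 FPKM (CORT), a log2 ratio of -1.47. The rows thus went in opposite directions, and the smaller held 14.6% of the summed C3 FPKM with vehicle but 5.28% with CORT. The summed FPKM of the 2 C3 rows was 10.4 in each group. The 2.76-fold difference of the smaller row was thus one of estimated shares between these rows and not of their sum. With a pseudocount of 1 FPKM the ratio of the smaller row was -0.70. How far the split of reads between the transcripts of 1 locus is an estimate of the software was not tested.

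**Figure D3:**
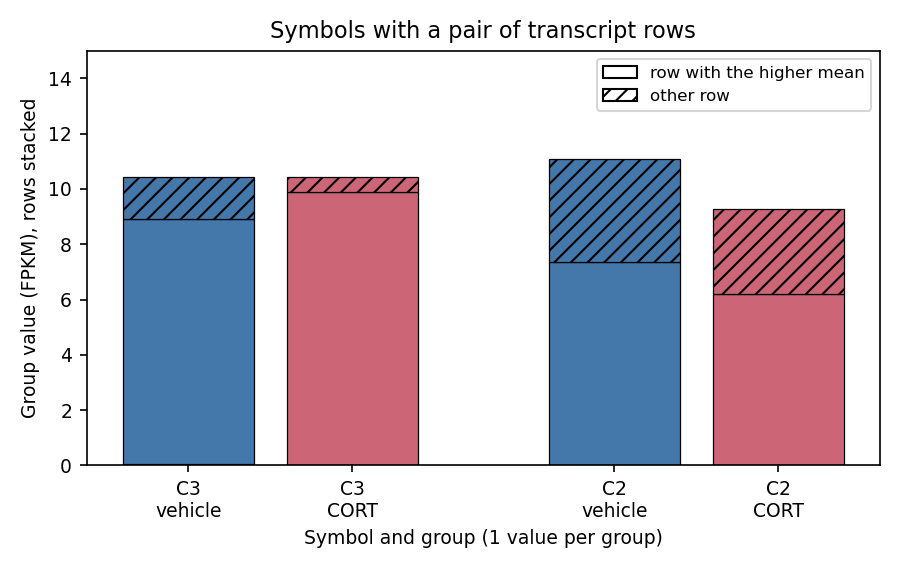
FPKM of the pair of transcript rows of C3 and C2 stacked by group (plain, the row with the higher mean; hatched, the other), 1 value per group. The stack of C3 reaches 10.4 FPKM in both groups while the hatched part is smaller with CORT, and the stack of C2 is at 11.1 FPKM (vehicle) and 9.28 FPKM (CORT) with its parts in proportion.

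Around these genes, 55 other genes were listed, 47 of them other recognition molecules, alternative and terminal components, regulators and receptors of complement, and 8 synaptic proteins that share the C1q domain. Each was represented by its row with the higher mean. Of the 55, 37 had a row and 33 a mean of at least 1 FPKM; 9 of these 33 were at least 20% lower with CORT, 1 was higher and 23 were neither, against 8.28% lower and 5.43% higher over 12795 symbols counted in the same way. The median log2 ratio of the 33 was -0.08, beside 0.02 over those symbols. Without the synaptic proteins the counts were 8 lower and 1 higher of 27. Among the 9 lower genes, Colec12, Colec11, Fcna, Cfd, Itgb2, Cd93 and Cbln1 had a mean between 1 and 5 FPKM. In that range 20% of all rows were at least 20% lower, more than the 8.28% over all levels. Cfd and Fcna reached the minimum mean only through their vehicle values, with CORT values of 0.645 and 0.959 FPKM. With a pseudocount of 1 FPKM the count of 9 was 4, against 5.62% of all symbols.

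Of 9 recognition and lectin pathway genes, 5 had a row, and 3 of them were at least 20% lower with CORT. All 3 had a mean between 1 and 5 FPKM, where 20% of all rows were lower by as much. Masp1, a protease of the lectin pathway and the most abundant of the 5, was at 20.6 FPKM (vehicle) and 23.2 FPKM (CORT), a log2 ratio of 0.17. Colec12, a scavenger receptor with a collectin domain, was at 6.12 and 3.63 FPKM, a log2 ratio of -0.75. Fcna, a ficolin, was at 1.33 and 0.959 FPKM (-0.47), and Colec11, a soluble collectin, at 1.56 and 1.21 FPKM (-0.36). Masp2, the other lectin pathway protease, named after its value was seen, was at 6.05 and 5.18 FPKM (-0.23) and so went the other way from Masp1 without reaching 20%. Mbl1, Mbl2, Fcnb and Colec10 had no row.

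In the alternative pathway, Cfp, properdin, which stabilizes the convertase, was at 9.003 FPKM (vehicle) and 9.71 FPKM (CORT), a log2 ratio of 0.11. Cfd, the protease factor D, was at 1.94 and 0.645 FPKM, a log2 ratio of -1.59. Cfb, factor B, was at 1.59 FPKM (vehicle) and 0.306 FPKM (CORT), a log2 ratio of -2.38, but its mean was just below 1 FPKM, so it was left out of the counts and is named after its value was seen. Its deposited locus is that of C2, whose own rows differed much less. Of the 7 terminal components that build the membrane attack complex, only C8g and C7 had a row, at log2 ratios of 0.12 and 0.14, both below 5 FPKM.

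Among 12 regulators with a row, 2 were at least 20% lower, 1 was higher and 9 were neither. Clu, clusterin, which restrains the terminal complex and was the most abundant complement-related gene of all, was at 762 FPKM (vehicle) and 685 FPKM (CORT), a log2 ratio of -0.15. Vtn, vitronectin, was at 21.9 and 13.5 FPKM, a log2 ratio of -0.70. Csmd1, a membrane regulator found on neurons, was at 3.52 and 4.63 FPKM (0.40) and was the only one of the 33 genes at least 25% higher. Serping1, which is not among the 12 regulators, and Vtn were both at least 20% lower with CORT. Clu was not, and the median over the 12 regulators was -0.01.

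Of the receptors, 9 of 12 had a row and 6 passed the minimum level; 2 of the 6 were at least 20% lower and none was higher. Calr, calreticulin, which binds C1q and is mainly a chaperone, was at 358 FPKM (vehicle) and 364 FPKM (CORT), a log2 ratio of 0.02. Itgb2, the shared β chain of complement receptors 3 and 4, was at 3.72 and 2.85 FPKM (-0.38), and Cd93, a surface protein of endothelial and myeloid cells, at 2.41 and 1.77 FPKM (-0.44). The anaphylatoxin receptors C5ar1, C3ar1 and C5ar2 were all below the minimum level and had lower values in the CORT group, with log2 ratios of -1.25, -0.77 and -0.72; they are named after their values were seen. The C1q-domain synaptic proteins, which organize synapses and take no part in the cascade, had a median log2 ratio of -0.03 over 6 genes. C1ql2, the most abundant of them, was at 80.6 and 72.0 FPKM (-0.16), and Cbln1 at 3.49 and 2.70 FPKM (-0.37).

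**Figure D4:**
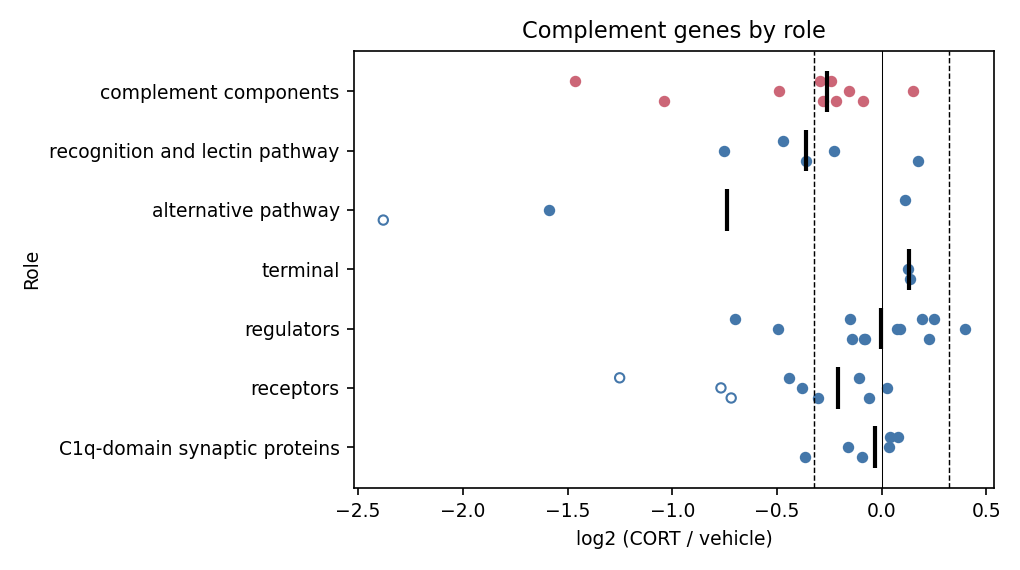
Log2 ratio of CORT over vehicle for the 10 complement rows (red) and for the other complement genes by role (blue, 1 point a gene; open points, mean below 1 FPKM). Bars mark the median of the filled points and dashed lines 20% lower and 25% higher; the terminal components lie above 0, and the regulators lie on both sides with a median of -0.01.

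Markers of the cell types that make complement differed between the groups as well. For all marker counts, the share over the 12795 symbols with a mean of at least 1 FPKM was 8.28% lower and 5.43% higher. Of 15 microglial markers, which did not include C1q, all had a row; 6 were at least 20% lower with CORT and 1 was higher, the median log2 ratio was -0.31 within a range of -0.69 to 0.96, and their summed level was 467 FPKM (vehicle) and 400 FPKM (CORT). Among the most abundant were Ctss, a lysosomal protease, at 139 and 144 FPKM (0.05), and Aif1, the calcium-binding protein Iba1, at 52.9 and 36.4 FPKM (-0.54). The marker that was higher, Tmem119, a surface protein of resident microglia named after its value was seen, was at 5.72 and 11.2 FPKM (0.96). C1qa and C1qb had higher ratios than 12 of the 15 microglial markers and C1qc than 9. Relative to the microglial median, the log2 ratios of C1qa, C1qb and C1qc were 0.22, 0.16 and 0.02, that of C1r was 0.10 and those of the C2 rows were 0.07 and 0.03, so that among the lower components only C1s (-0.18), Serping1 (-0.73) and the smaller C3 row (-1.15) stayed below 0 on this scale. The genes of C1q thus had lower FPKM with CORT. The ratios of C1qa and C1qb were above the microglial median, and that of C1qc was about equal to it. Serping1 and the smaller C3 row had ratios below all 15, but both genes are also made by other cell types. The part of microglial content in these values was not tested.

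Of 10 meningeal fibroblast markers 8 had a row, and 6 were at least 20% lower, with a median of -0.71 and a summed level of 147 FPKM (vehicle) and 108 FPKM (CORT). Igf2, a growth factor, was at 59.0 and 46.3 FPKM (-0.35), Slc13a4, a sulfate transporter, at 21.4 and 18.3 FPKM (-0.23) and Dcn, the proteoglycan decorin, at 18.8 and 20.04 FPKM (0.09). Col1a2 and Ogn had no row. All 3 of 5 blood markers with a row were lower, with a median of -0.80 and a summed level of 1166 and 682 FPKM; the globins Hba1 and Hbb were at 583 and 347 FPKM and at 580 and 334 FPKM, and Alas2, the heme synthesis enzyme of red cells, at 2.86 and 1.62 FPKM. Of 8 endothelial markers 7 had a row, and 4 were lower (median -0.44, summed 91.1 and 76.6 FPKM), with Cldn5, a tight junction protein, at 50.8 and 45.6 FPKM, Slco1a4, a transporter, at 16.7 and 11.8 FPKM and Emcn, a sialomucin, at 6.96 and 6.31 FPKM. The markers with a mean of at least 1 FPKM ranged from -1.44 to 0.09 for meningeal fibroblasts, from -1.01 to 0.01 for endothelial cells, from -0.82 to -0.75 for blood, from -0.91 to 0.18 for astrocytes and from -1.21 to 0.47 for the 2 perivascular macrophage markers at that level, beside -1.04 for Serping1. The part of tissue content in the complement values was not tested.

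The remaining lists went different ways. Perivascular macrophage markers were weak, with 5 of 6 in the table and a summed level of 10.6 FPKM (vehicle) and 6.15 FPKM (CORT); Pf4, a chemokine, was at 6.63 and 2.86 FPKM, Lyve1, a hyaluronan receptor, at 1.27 and 1.75 FPKM, and Mrc1, the mannose receptor, at 1.02 and 0.756 FPKM. Cd163 had no row. Of 8 astrocyte markers 3 were lower (median -0.09, summed 2586 and 2132 FPKM), with S100b, a calcium-binding protein, at 1066 and 1095 FPKM, Gfap, the astrocyte filament protein, at 970 and 517 FPKM, and Slc1a2, a glutamate transporter, at 159 and 175 FPKM. Of 7 oligodendrocyte markers 1 was lower (median -0.24, summed 5367 and 4460 FPKM), with the myelin genes Mbp at 2226 and 1772 FPKM and Cnp at 413 and 346 FPKM. Neurons and choroid plexus had none lower or higher. The 8 neuronal markers had a median of 0.14 and a summed level of 3000.4 FPKM (vehicle) and 3164 FPKM (CORT), with Snap25, of the release machinery, at 1178 and 1155 FPKM, Slc17a7, the vesicular glutamate transporter, at 736 and 794 FPKM, and Camk2a, a synaptic kinase, at 593 and 667 FPKM. The 8 of 9 choroid plexus markers with a row had a median of -0.01 and a summed level of 6784 and 6770.2 FPKM, with Ttr, transthyretin, at 6605 and 6598 FPKM, Folr1, a folate receptor, at 44.1 and 42.7 FPKM, and Clic6 at 31.9 and 34.96 FPKM. The neuronal levels were high, but so was Ttr of the choroid plexus, and these markers do not by themselves identify the hippocampus.

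**Figure D5:**
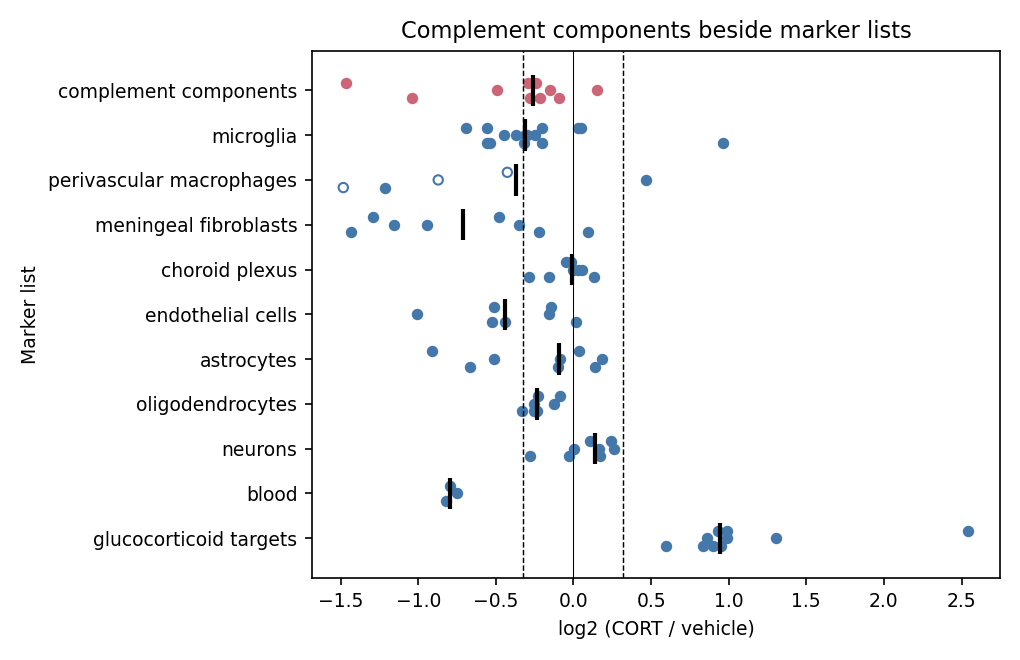
Log2 ratio of CORT over vehicle for the 10 complement rows (red) and for the genes of each marker list (blue; open points, mean below 1 FPKM). Bars mark the median of the filled points and dashed lines 20% lower and 25% higher; microglia (median -0.31) and meningeal fibroblasts (-0.71) lie left of 0, neurons (0.14) and glucocorticoid targets (0.94) right of it.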

How the data were processed

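Total RNA of 8 whole hippocampi was sequenced from stranded libraries, 4 per group. Per the labels the authors used CASAVA 1.8.2, TopHat2 2.0.10 and Cuffdiff 2.2.0 with the rn6 genome. Their methods give geometric scaling between libraries, a minimum alignment count, and corrections for multi-mapped reads, bias and effective length, each of which can move the FPKM of a weakly expressed or overlapping transcript. The deposited FPKM values, 1 per group and Ensembl transcript, pool the 4 rats. The same table holds the authors' fold change, test statistic, p-value, q-value and significance columns, which were not used. All 16266 rows have the status OK.

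Log2 ratios, counts of values at least 20% lower or 25% higher with CORT and list medians were computed here with Python 3.11.15, numpy 2.4.6 and pandas 2.3.3, and plots with matplotlib 3.10.9; the counting was tested on simulated data. No test was run and no depth per sample could be read. The genes and lists were chosen with earlier results of these data known. Named by rule were all listed components, in each role the most abundant gene and up to 4 past that ratio, and the 3 most abundant of each marker list, of which a few genes are not reported here. Promoter windows came from RefSeq. Alternatives were pseudocounts of 1 and 0.1 FPKM, folds of 1.5 and 1.1, no filter or a mean of 5 FPKM, centring on all rows or on the microglial markers, and summing rows of a symbol. With no spread between rats, a ratio was taken as moved when it changed by 0.1 or more.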

Additional observations from a re-analysis of the deposited data

How the results depend on the processing

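The median log2 ratio of the complement rows, -0.26, lay between -0.29 and -0.21 under no filter, a mean of at least 5 FPKM, both pseudocounts, centring on all rows and summing the rows of a symbol, and was 0.0505 relative to the microglial median. The count of complement rows at least 20% lower, 3, was 8 of 10 with a fold of 1.1 (21.0% of all rows), 1 of 7 (Serping1) with a mean of at least 5 FPKM (4.45% of all rows), and 2 to 3 otherwise. The count for the other complement genes, 9, was 3 with a fold of 1.5 (3.06% of all symbols), 14 with a fold of 1.1 (20%), 4 with a pseudocount of 1 FPKM (5.62%), 13 without a filter (9.52%) and 9 with rows summed (7.83%). Of the single rows, 3 moved with a pseudocount of 1 FPKM (C1s to -0.39, Serping1 to -0.91 and the smaller C3 row to -0.70), 1 with 0.1 FPKM, none on centring and all 10 relative to the microglial median; both C3 rows moved on summing. No row at least 20% lower turned its direction. Leaving out each rat was not possible with group values. No paired analysis was possible because each group has a single value. Depth is unknown, which leaves the detection limit of weak rows unknown.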

Other observations

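C2 lies in a gene-dense part of chromosome 20, and rows of neighbouring genes with no complement role, named after their values were seen, are given for comparison. Its deposited locus holds 6 rows, of which 3 are of Nelfe, and the most abundant of these was at 26.3 FPKM (vehicle) and 24.2 FPKM (CORT), a log2 ratio of -0.12, while the others were at 2.29 and 1.06 FPKM (-1.12) and at 2.52 and 2.98 FPKM (0.24). Within 20000 bases on either side lay 7 rows of 5 genes, of which 2 were at least 20% lower with CORT and none was higher. Of all rows with a mean of at least 1 FPKM, 9.25% were lower by as much and 8.40% were counted as higher. Stk19, Dxo, Skiv2l and Zbtb12 had log2 ratios of 0.10, -0.14, 0.05 and -0.06. Both of the lower rows belonged to Ehmt2, a histone methyltransferase, whose most abundant row was at 53.0 FPKM (vehicle) and 62.9 FPKM (CORT), a log2 ratio of 0.25. As for C3, rows of Ehmt2 and of Nelfe thus went in opposite directions within the gene.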
